A study of Mus musculus with 6 samples.

Results

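The transcripts described here are 8 transfer RNAs (tRNAs) on the heavy-strand transcript of mouse mitochondrial DNA (mtDNA), namely mt-Ti, mt-Tm, mt-Tw, mt-Td, mt-Tk, mt-Tr, mt-Th and mt-Tt. All but mt-Tt, which follows the last mRNA, lie between mRNAs. They were taken by name as the heavy-strand tRNA rows downstream of mt-Tl1, and make up 8 of 39177 rows in each count file and 8 of the 35 mtDNA rows. By position, 11 heavy-strand tRNA genes follow mt-Tl1; mt-Tg, mt-Ts2 and mt-Tl2, which complete them, had 0 counts in every library and are not among the 8.

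The counts come from RNA of crude heart mitochondria, 1 library from each of 6 C57BL/6N mice aged 3 to 4 weeks. All 6 animals carried Polrmt alleles with loxP sites around exon 3 (L/L). The 3 controls had no cre (tagged Polrmt +/+), and the 3 knockouts (L/L, cre; tagged Polrmt -/-) carried cre driven by a muscle creatine kinase promoter, which is active in striated muscle, so that other cells of the heart keep the gene. Polrmt, the RNA polymerase of mitochondria, had 3, 2 and 1 counts in controls and 2, 5 and 1 in knockouts; because reads from the exons left in place are counted as well, these values check neither the deletion nor the labels.

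mtDNA is transcribed from both strands as long precursors. In most places of the heavy-strand precursor a tRNA separates 2 mRNAs, and release of the tRNA by RNase P at its 5′ end and by the RNase Z enzyme Elac2 at its 3′ end also frees the mRNAs, an arrangement known as tRNA punctuation. The nucleotidyltransferase Trnt1 then adds CCA to the 3′ end, and a mitochondrial synthetase loads the amino acid. In these data a count in a tRNA row can come from a mature tRNA or from a longer precursor that spans it, and gene-level counts do not tell these apart.

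The sequences of the 8 genes are shown because they are the transcripts counted, and because their anticodons, length and base composition are described with the counts. They are the mtDNA strand identical to the RNA, written 5′ to 3′ with T for U, from the GENCODE M21 transcripts on GRCm38. Capitals mark the anticodon, the 3 bases that read the codon, located at the centre of a loop of 7 bases.
mt-Ti (isoleucine, chrM:3706-3774, + strand): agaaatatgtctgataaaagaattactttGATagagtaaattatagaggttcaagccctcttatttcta
mt-Tm (methionine, chrM:3845-3913, + strand): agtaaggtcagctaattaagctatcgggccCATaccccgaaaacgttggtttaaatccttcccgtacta
mt-Tw (tryptophan, chrM:4950-5016, + strand): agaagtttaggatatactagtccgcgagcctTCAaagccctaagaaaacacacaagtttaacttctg
mt-Td (aspartate, chrM:6942-7011, + strand): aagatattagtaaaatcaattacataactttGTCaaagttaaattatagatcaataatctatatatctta
mt-Tk (lysine, chrM:7700-7764, + strand): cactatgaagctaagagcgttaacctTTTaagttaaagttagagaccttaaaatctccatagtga
mt-Tr (arginine, chrM:9808-9875, + strand): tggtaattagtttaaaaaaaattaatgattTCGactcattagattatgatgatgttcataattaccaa
mt-Th (histidine, chrM:11546-11612, + strand): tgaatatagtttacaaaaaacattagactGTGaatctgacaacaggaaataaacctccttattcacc
mt-Tt (threonine, chrM:15289-15355, + strand): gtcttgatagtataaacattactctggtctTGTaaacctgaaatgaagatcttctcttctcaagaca

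The genes are between 65 bases (mt-Tk) and 70 bases (mt-Td) long. G and C made up 44.9% of mt-Tm and 40.3% of mt-Tw, the highest shares of the 8, and 17.1% of mt-Td and 22.1% of mt-Tr, the lowest. In pairwise global alignments the sequences shared between 41.7% of positions (mt-Tm and mt-Td) and 64.9% (mt-Ti and mt-Td), so none is a near-copy of another. A search of annotated nuclear transcripts for stretches of at least 20 bases, on both strands, found one for mt-Tt alone, a stretch of 25 bases in Gm43841; unannotated nuclear copies of mtDNA were not searched.

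The genes differ in the heavy-strand room beside them. mt-Ti begins inside the last 2 bases of mt-Nd1, and 70 bases separate it from mt-Tm, where the light-strand gene mt-Tq lies on the opposite strand. mt-Tm ends directly at mt-Nd2, and mt-Tw begins inside the last 2 bases of mt-Nd2 and lies 311 bases before mt-Co1. The light-strand genes mt-Ta, mt-Tn, mt-Tc and mt-Ty lie on the opposite strand of those 311 bases. A stretch of 69 bases, with the light-strand gene mt-Ts1 opposite it, lies between mt-Co1 and mt-Td, which is followed by mt-Co2 after 1 base. The closest packing is that of mt-Tk, with 3 bases to mt-Co2 and 1 base to mt-Atp8, of mt-Tr, with 1 base to mt-Nd3 and 1 base to mt-Nd4l, and of mt-Th, with 1 base to mt-Nd4 and 0 to mt-Ts2. mt-Tt directly follows mt-Cytb and is the last heavy-strand gene.

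Gene-assigned totals lay between 2867067 and 3234729 counts in controls and between 1062030 and 1227997 in knockouts, of which mtDNA held 81.9% ± 2.10 and 22.8% ± 2.65 (SD, n = 3 each). Levels across libraries are given in CPM, counts divided by a library size that the TMM method adjusts so that most tested rows, which are nuclear, show no change. A change in CPM is thus measured against nuclear RNA that came along in the preparation, and it cannot be told apart from a change in how much nuclear RNA stayed with the mitochondria. All 7 fixed cardiomyocyte markers had counts, with a summed level between 4142 and 5012 CPM in controls and between 3651 and 4096 CPM in knockouts, and 4 of them fell (edgeR adjusted p under 0.05, against 6.78% called lower among all 3363 tested rows). Markers of other cell types were all detected too, and 1 of 5 fibroblast, 1 of 5 endothelial, 1 of 3 smooth muscle, 2 of 4 immune and 0 of 3 erythroid markers fell, with none higher. The summed levels were lower in knockouts without overlap for every list but the erythroid one. Besides the cardiomyocyte sums above, controls against knockouts spanned 668 to 717 and 562 to 641 CPM for fibroblast markers. For endothelial markers they spanned 84.9 to 102 and 65.4 to 81.1 CPM, and for smooth muscle markers 31.8 to 58.2 and 17.9 to 28.6 CPM. The immune sums spanned 24.4 to 36.9 and 8.72 to 15.2 CPM. Among single tested rows, 14.1% had knockouts below controls without overlap. The summed erythroid markers overlapped, between 43.5 and 96.5 CPM in controls and between 43.6 and 90.3 CPM in knockouts. Fewer cells of a type and less RNA per cell cannot be told apart in such samples, and the part of these marker levels in the tRNA results was not tested.

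The 8 tRNA rows were very unequal in level. In controls, mt-Tm, mt-Ti and mt-Tw together held 2043 counts and the other 5 together 34. mt-Tm, the tRNA of methionine and thus of translation initiation, had 447, 556 and 327 counts in controls 1 to 3. mt-Ti, the isoleucine tRNA, had 205, 165 and 112 counts in the same libraries, and mt-Tw, the tryptophan tRNA, had 87, 79 and 65. These 3 rows came in the same order in every control, with no overlap between them.

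Among the sparse rows, mt-Th, the histidine tRNA, had 3, 8 and 2 counts in controls and 3, 0 and 0 in knockouts. mt-Tt, the threonine tRNA, had 2, 3 and 8 counts in controls and 1, 2 and 1 in knockouts. mt-Td, the aspartate tRNA, had 3, 1 and 2 counts in controls and none in any knockout. mt-Tk and mt-Tr, the lysine and arginine tRNAs, had 1 count each over all 6 libraries, in control 3 and in control 1. Levels of the sparse rows therefore have no dependable order among themselves. A count of 0 allows up to 3 counts, for counting error only. That is between 1.83 and 2.51 CPM in controls and between 1.14 and 1.45 CPM in knockouts.

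**Figure D1:**
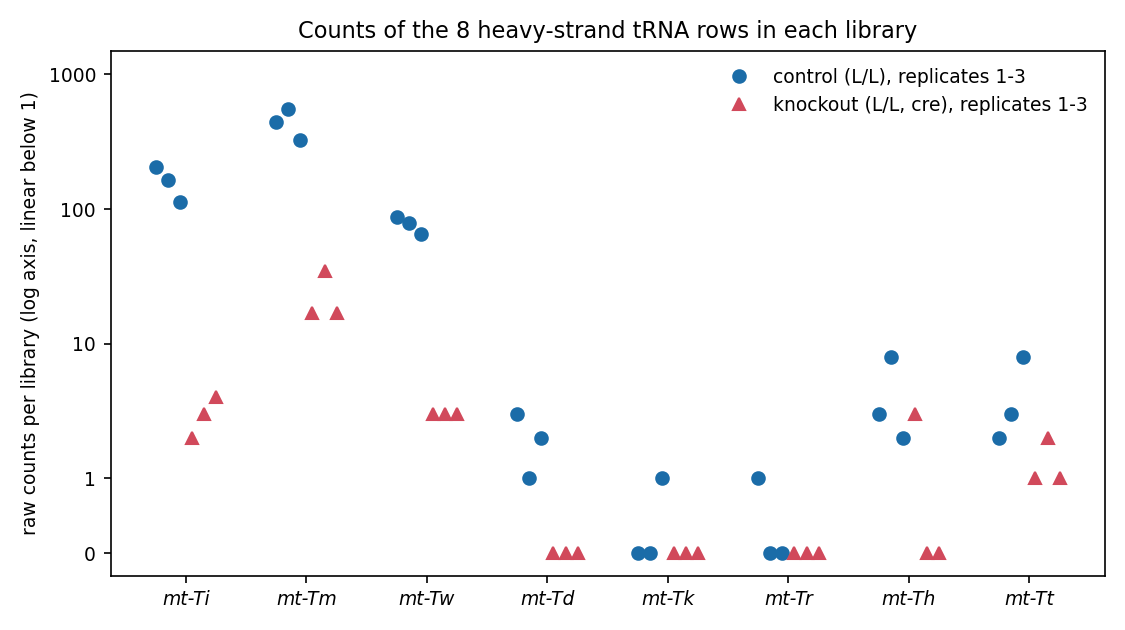
Raw counts (vertical axis, logarithmic above 1 and linear below it) of the 8 tRNA rows in the 3 control libraries (circles) and the 3 knockout libraries (triangles), replicates 1 to 3 from left to right in each group. mt-Ti, mt-Tm and mt-Tw hold 2043 of the control counts, and for these 3 every knockout lies below every control. Raw counts are not scaled for depth, and control libraries held 2867067 to 3234729 counts in all, against 1062030 to 1227997 in knockouts. The share of all rows that separate in raw counts is not given here.

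Per length, every tRNA row lay far under the mRNAs beside it. mt-Tm had 6425 ± 1660 counts per kb in controls (SD, n = 3), which was 19.0% ± 2.19 of the counts per kb of mt-Nd1, a complex I subunit, and 21.7% ± 4.51 of those of mt-Nd2, another complex I subunit. The level of mt-Ti per kb was 6.97% ± 1.95 of that of mt-Nd1, and mt-Tw had 3.90% ± 0.437 of the level per kb of mt-Nd2 and 1.38% ± 0.194 of that of mt-Co1, the catalytic subunit of cytochrome c oxidase (SD, n = 3 each). The sparse rows lay lower still: mt-Th had 0.216% ± 0.154 of the level per kb of mt-Nd4l/mt-Nd4, mt-Tt 0.1496% ± 0.114 of that of mt-Cytb, the mtDNA-encoded subunit of complex III, and mt-Td 0.0345% ± 0.0177 of that of mt-Co1. The rows with high counts were the 2 beside the 70-base stretch and the one beside the 311-base stretch, while mt-Tk, mt-Tr and mt-Th, with at most 3 bases on either side, were sparse. mt-Td, with 69 bases on its upstream side, and mt-Tt, with no heavy-strand gene after it, were sparse as well, so room beside the gene did not sort the rows fully. The rule for counting reads that overlap several genes is not known here, and the part of this in the levels was not tested.

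**Figure D2:**
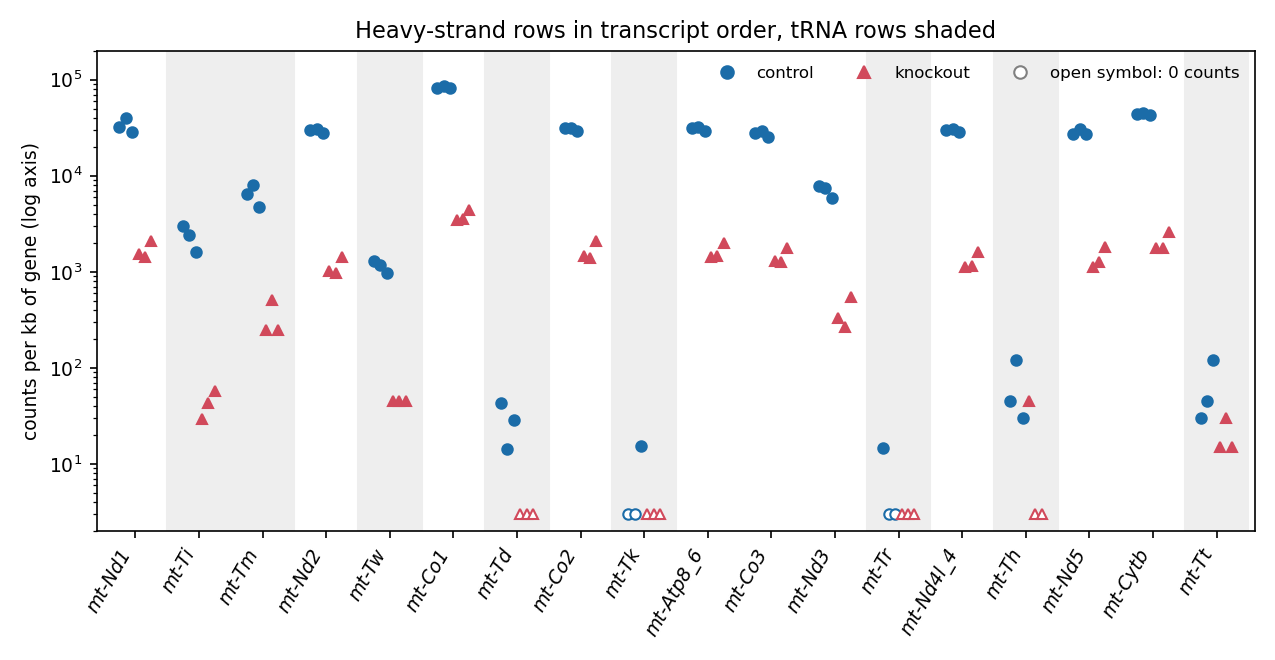
Counts per kb of gene (vertical axis, log scale) of heavy-strand rows in transcript order, with tRNA rows shaded, for controls (circles) and knockouts (triangles); open symbols at the bottom stand for 0 counts. The mRNA rows lie between 5908 and 85914 counts per kb in controls. Within each control library they lie above all tRNA rows, except that mt-Tm exceeds mt-Nd3 in control 2.

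The order of the counts followed codon use only in part. These counts do not tell mature tRNAs from precursors, so they are not levels of mature tRNA. The 13 mtDNA mRNAs hold 3790 codons by annotation, among them 373 for isoleucine, 308 for threonine, 247 for methionine, 103 for tryptophan and 103 for lysine, with start codons counted by their letters. The remaining rows serve fewer, with 97 codons for mt-Th, 74 for mt-Td and 64 for mt-Tr. mt-Ti and mt-Tm, with 482 and 1330 control counts, were among the 3 rows that serve the most codons, and mt-Th, mt-Td and mt-Tr, which serve the fewest, had 13, 6 and 1. The exceptions were mt-Tt, which serves 308 codons and had 13 control counts, and the pair mt-Tw and mt-Tk, which serve 103 codons each and had 231 counts and 1 count.

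In the knockouts, the 3 abundant tRNA rows were lower than in controls relative to nuclear transcripts. mt-Ti had 2, 3 and 4 counts in knockouts 1 to 3, against at least 112 in each control. On the CPM scale it fell from 172, 101 and 68.4 to 0.969, 1.301 and 1.52, a mean of 114 ± 52.9 against 1.26 ± 0.280 (SD, n = 3 each). The fitted log2 fold change was -6.37 ± 0.61 SE, an 82.6-fold fall, with an edgeR adjusted p of 0.00111 and all 3 of 3 knockouts lower. Its controls spanned a wide range, with control 1 the highest, and its knockouts lay at or near 3 counts.

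mt-Tm had 17, 35 and 17 counts in the knockouts. It fell from 375, 340.4 and 199.8 CPM to 8.24, 15.2 and 6.48 CPM, a fitted change of -4.93 ± 0.34 SE on the log2 scale or a 30.5-fold fall, with an edgeR adjusted p of 1.01e-05. Knockout 2 was the highest of the knockouts and still lay far under the lowest control. mt-Tw had 3 counts in each knockout and fell from 72.9, 48.4 and 39.7 CPM to 1.45, 1.301 and 1.14 CPM, by 38.9-fold, with a fitted change of -5.28 ± 0.30 SE on the log2 scale and an edgeR adjusted p of 4.80e-38. For both, every knockout lay under every control. Over the 12 alternatives in edgeR or DESeq2, the adjusted p lay between 8.52e-111 and 0.0142 for mt-Ti and between 3.90e-141 and 0.000648 for mt-Tm. For mt-Tw it lay between 4.59e-60 and 2.43e-13, so the sizes of these p-values do not rank the 3 rows. These 3 rows were the ones that passed the low-count filter, mt-Ti and mt-Tw through their control counts and mt-Tm in both groups, so the number of calls among them carries no weight; over all 3363 tested rows 6.78% were called lower, and in 14.1% the knockouts lay below the controls without overlap.

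The other 5 rows did not pass that filter and have pooled ratios in place of a test. mt-Th went from 13 to 3 counts, a ratio of knockout to control of 0.147 on the TMM-scaled libraries with a 95% Poisson interval from 0.0269 to 0.536. mt-Tt went from 13 to 4 counts, a ratio of 0.196 (95% Poisson interval 0.0466 to 0.636). mt-Td went from 6 counts to 0 and was at least 3.13-fold lower when 3 counts are set for the knockouts together and the 6 control counts are taken as exact. The 95% Poisson interval of its ratio, which includes the counting error of the controls, reached up to 0.542, a fall of 1.85-fold. For mt-Tk and mt-Tr both groups are under 3 counts and no ratio is given. With no low-count filter, edgeR called none of these 5 (adjusted p between 0.181 and 0.744), with mt-Td, mt-Th and mt-Tt at an unadjusted p under 0.05.

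**Figure D3:**
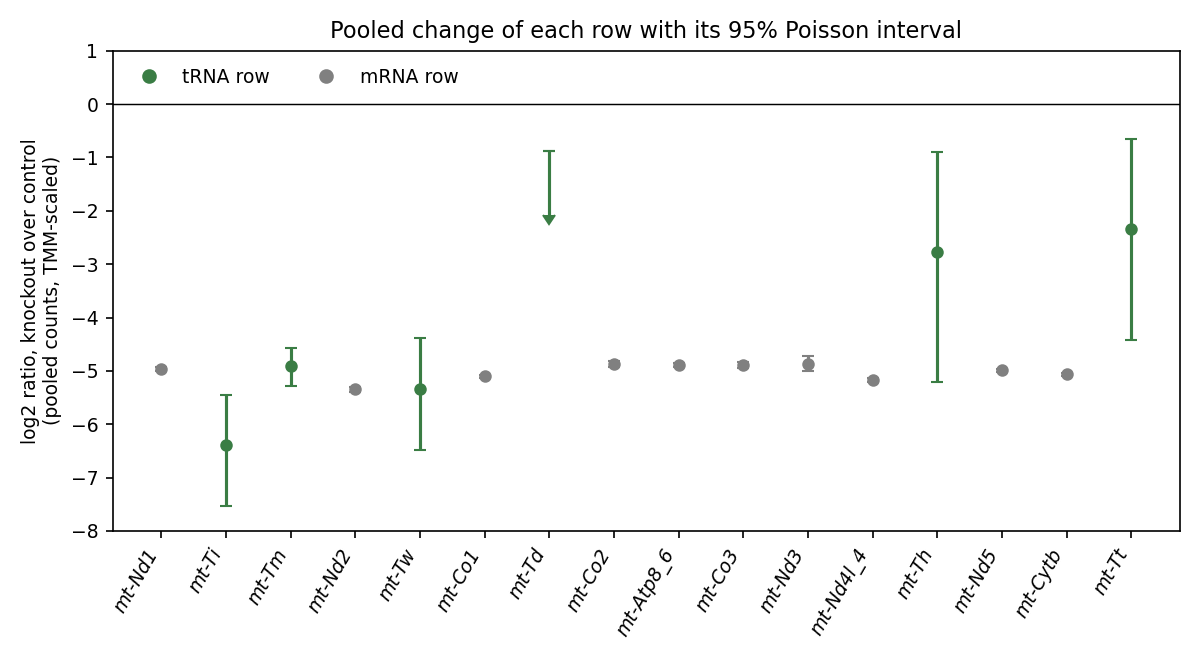
Log2 ratio of knockout to control (vertical axis; pooled counts over TMM-scaled library sizes) for tRNA rows (green) and mRNA rows (grey) in transcript order, with 95% Poisson intervals that cover counting error only. The arrow of mt-Td starts at the upper end of its interval, because its knockouts hold 0 counts; mt-Tk and mt-Tr, with 1 count each, are left out. mt-Ti lies lowest, and mt-Th and mt-Tt have wide intervals above the mRNA rows or reaching them.

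The falls of mt-Tm and mt-Tw were close in size to those of the neighbouring mRNAs, and that of mt-Ti was deeper. The flanking mRNA of both mt-Tm and mt-Tw, mt-Nd2, had a log2 fold change of -5.38 ± 0.22 SE, mt-Nd1 one of -4.99 ± 0.22 SE and mt-Co1 one of -5.13 ± 0.23 SE. In the authors' deposited table, which lists none of the 8 tRNA rows, mt-Nd1 had -4.92, mt-Nd2 -5.36 and mt-Co1 -5.01 on the log2 scale. That table gives mt-Nd3, the mRNA just before mt-Tr, a log2 fold change of -7.63, where the raw counts fitted here gave -4.92 ± 0.22 SE. The 5 tested rows whose profile over the 6 libraries was most like that of the summed tRNA rows were mt-Co1, mt-Atp8/mt-Atp6, mt-Nd1, mt-Co3 and mt-Nd5. Their root mean square difference of mean-centred log2 CPM lay between 0.35 and 0.39.

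Measured against the heavy-strand mRNAs, a comparison that needs no nuclear scaling, the tRNA rows as a sum showed no difference between the groups beyond the spread of the libraries. The 8 rows held 18.2, 18.7 and 13.1 counts per 10000 heavy-strand mRNA counts in controls 1 to 3 and 15.2, 24.7 and 10.5 in knockouts 1 to 3. The means were 16.7 ± 3.114 and 16.8 ± 7.25 (SD, n = 3 each), the groups overlapped, and the log2 difference was -0.06 (exact permutation test, 2-sided, p = 1, where 3 against 3 can give no p below 0.1). Pooled over libraries the ratio was 0.960 with a 95% Poisson interval from 0.773 to 1.18. The spread between knockouts was wider than that interval, and came from mt-Tm, which reached 20.1 per 10000 in knockout 2 against 9.94 and 7.12 in the others.

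Within this sum mt-Ti differed. It had 4.998, 3.80 and 2.84 counts per 10000 heavy-strand mRNA counts in controls and 1.17, 1.72 and 1.68 in knockouts, so that the groups did not overlap. The share of all tested rows that do not overlap on this scale is not given here, so this separation has no background beside it. In an edgeR fit with the heavy-strand mRNA counts as library size mt-Ti was 2.51-fold lower (log2 fold change -1.33 ± 0.46 SE, 95% interval -2.24 to -0.42, adjusted p = 0.00423, lower in 3 of 3 knockouts). It was the only one of the 3363 tested rows called lower on this scale in that fit, which is 0.0297% of them. That rarity carries no weight, because this library size shifts the median of all rows to 5.03 on the log2 scale. With 99.6% of rows, nearly all nuclear, called higher, the adjusted p is hardly larger than the unadjusted one. The call did not hold in DESeq2 (log2 fold change -1.34, adjusted p = 0.108). Nor did it hold with the mtDNA rows fitted alone (-1.33, adjusted p = 0.142), a fit added after seeing the data. Of the 17 rows in that fit, 6 were called higher and 2 lower, with mt-Ti not among them. The 2 lower rows were mt-Nd2 (log2 fold change -0.29, adjusted p = 0.000437) and mt-Nd4l/mt-Nd4 (-0.11, adjusted p = 0.00422). The call of mt-Ti rests on 9 knockout counts, where 22.7 would be expected had it moved as the mRNAs did.

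mt-Tm and mt-Tw gave no call against the mRNAs. For mt-Tm the log2 fold change was 0.18 ± 0.27 SE (95% interval -0.35 to 0.70, adjusted p = 0.513), and without knockout 2 its direction turned, to -0.35 (adjusted p = 0.313). mt-Tw had -0.27 ± 0.52 SE (95% interval -1.29 to 0.75, adjusted p = 0.604). Its 2.12, 1.82 and 1.65 counts per 10000 mRNA counts in controls overlapped the 1.75, 1.72 and 1.26 in knockouts. These intervals leave room for changes of more than 1.5-fold in mt-Tm and more than 2-fold in mt-Tw.

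**Figure D4:**
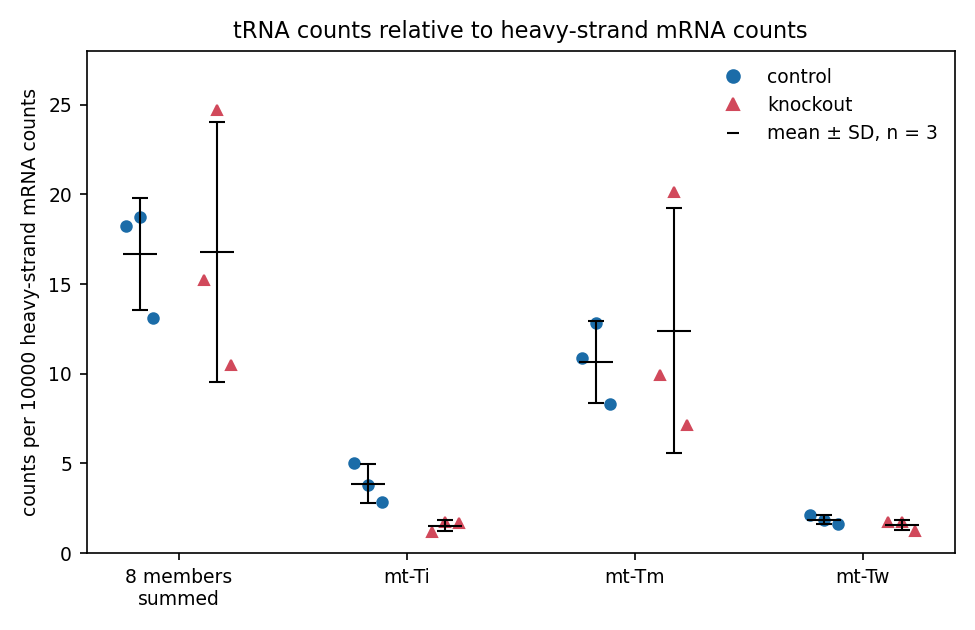
Counts per 10000 counts of the 10 heavy-strand mRNA rows (vertical axis from 0) for the 8 tRNA rows summed and for mt-Ti, mt-Tm and mt-Tw, in controls (circles) and knockouts (triangles), with the mean and SD of 3 libraries in black. mt-Ti separates the groups, from 2.84 and above in controls to 1.72 and below in knockouts, while the summed rows, mt-Tm and mt-Tw overlap.

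Ratios between the tRNA rows, which use no other transcript, separated the groups where mt-Ti was one of the rows. They reuse the same 9 knockout counts of mt-Ti and are not independent of the result above. mt-Ti made up 27.4%, 20.3% and 21.7% of the counts of the 8 rows in controls and 7.69%, 6.98% and 16% in knockouts, with no overlap. For each count of mt-Tw, controls 1 to 3 held 2.36, 2.09 and 1.72 counts of mt-Ti, and knockouts 1 to 3 held 0.667, 1 and 1.33. For each count of mt-Tm, controls held 0.459, 0.297 and 0.343 counts of mt-Ti, against 0.118, 0.0857 and 0.235 for the knockouts. Each of these had an exact permutation p of 0.1, the smallest possible, and an adjusted p of 0.25 over the 10 ratios computed. mt-Tm per count of mt-Tw was 5.14, 7.04 and 5.03 in controls and 5.67, 11.7 and 5.67 in knockouts, which overlapped (exact permutation p = 0.5, adjusted 0.714).

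Set against the mRNAs on either side, mt-Ti had pooled odds ratios of knockout to control below 1. Against mt-Nd1, which it overlaps by 2 bases, the ratio was 0.372, with an exact conditional 95% interval from 0.169 to 0.712, and leaving out any 1 library gave between 0.343 and 0.439. Against mt-Nd2, downstream, it was 0.483 (0.219 to 0.926), and the interval reached past 1 without control 1 (upper end 1.08), knockout 1 (1.11) or knockout 3 (1.09). The gene mt-Tm, which lies between mt-Ti and mt-Nd2, had an odds ratio of 1.03 (0.797 to 1.32) against mt-Nd1 and 1.34 (1.04 to 1.72) against mt-Nd2, but 0.711 (0.490 to 1.001) and 0.921 (0.634 to 1.297) without knockout 2, which held 35 of its 69 knockout counts. Without control 3 its ratio against mt-Nd2 was 1.22 (0.941 to 1.56). For mt-Tw it was 1.01 (0.455 to 1.95) against mt-Nd2 and 0.854 (0.386 to 1.65) against mt-Co1. The intervals treat reads as independent and cover counting error only.

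The pooled ratios of mt-Tt and mt-Th lay above 1. mt-Tt had an odds ratio of 6.58 (1.56 to 21.3) against mt-Cytb, with 13 control and 4 knockout counts where 0.608 knockout counts would be expected had it moved with mt-Cytb. Without knockout 2, which held 2 of those 4 counts, the ratio was 4.65 (0.509 to 20.5), and without control 3, which held 8 of the 13, it was 11.5 (2.29 to 53.6). mt-Th had 5.28 (0.965 to 19.2) against mt-Nd4l/mt-Nd4 and 4.68 (0.855 to 17.0) against mt-Nd5, and all 3 of its knockout counts came from knockout 1. Against mt-Nd4l/mt-Nd4 its ratio was 8.996 (1.40 to 46.2) without control 2, 7.49 (1.37 to 27.3) without knockout 2 and 9.05 (1.65 to 33.0) without knockout 3, and without knockout 1 no count was left, with an upper end of 10.6. Against mt-Nd5 it was 7.79 (1.21 to 40.04) without control 2, 6.69 (1.22 to 24.4) without knockout 2 and 8.21 (1.4996 to 29.9) without knockout 3. Without knockout 1 the upper end against mt-Nd5 was 9.11, again with no count left. Without control 1 or without control 3 the intervals included 1 against both mRNAs. The ratios of mt-Th were then 4.57 and 4.24 against mt-Nd4l/mt-Nd4, and 4.14 and 3.76 against mt-Nd5. Taken as a sum chosen after the counts were seen, the 5 sparse rows held 9, 12 and 13 counts in controls and 4, 2 and 1 in knockouts, which is 4.37 times the mRNA ratio (1.63 to 10.01), and 2.65 times (0.520 to 8.42) without knockout 1. For mt-Td, mt-Tk and mt-Tr together 8 control counts would leave fewer than 1 expected knockout count, so their 0 counts show no departure from the mRNAs that this depth could detect.

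Other tRNA rows of mtDNA give a frame for these values. mt-Tl1, just before mt-Nd1, had 15, 14 and 12 counts in controls and 1, 0 and 0 in knockouts. mt-Tv, between the rRNAs, had 78, 94 and 40 counts in controls and 10, 7 and 7 in knockouts, and against the heavy-strand mRNAs it was higher in the knockouts, by 1.28 ± 0.39 SE on the log2 scale (edgeR adjusted p = 0.00112). The rRNA next to it, mt-Rnr2, was higher on that scale by 1.41 ± 0.19 SE. mt-Tq, the light-strand tRNA opposite the stretch between mt-Ti and mt-Tm, had 0 counts in all 6 libraries. mt-Tp, the light-strand tRNA directly after mt-Tt, had 8, 7 and 9 counts in controls and 2, 2 and 2 in knockouts. The light-strand tRNA rows together went from 54 to 10 counts, while the heavy-strand mRNA rows went from 1238619 to 58368. A smaller fall than that of these mRNAs was thus not particular to mt-Tt and mt-Th, and its cause was not tested.

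Nuclear genes that process, charge or modify mitochondrial tRNAs were too sparse for most tests. Of 32 listed genes in the files, 6 passed the low-count filter, 1 was higher, 0 were lower and 5 did not pass the test. The median log2 fold change of the 6 was 0.35, beside 0.0038 over all tested rows, of which 6.66% were called higher. The filter used library totals, which were lower in knockouts, and all 6 passed through their knockout counts. The direction of the calls and the median therefore carry no weight for the list. With edgeR 0 of the 6 were lower at an unadjusted p under 0.05 either, and DESeq2 called 0 lower and 0 higher. With no low-count filter edgeR called 0 of the 32 in either direction. At an unadjusted p under 0.05, 4 of the 32 were then higher and 2 lower. The gene called with the filter was Trnt1, with 2, 1 and 2 counts in controls and 6, 10 and 13 in knockouts. It was higher by 1.83 ± 0.55 SE on the log2 scale with an edgeR adjusted p of 0.0196. That call was lost without any 1 of the controls, without knockout 2 and without knockout 3 (highest adjusted p 0.249) and in DESeq2 (adjusted p = 0.295).

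The synthetases that passed the filter gave no call. Iars2, the isoleucyl synthetase and so the partner of mt-Ti, had 46 control and 61 knockout counts and a log2 difference of -0.24 ± 0.30 SE that did not pass edgeR's test (adjusted p = 0.701). Kars, which serves the cytosol and mitochondria with lysyl-tRNA, had -0.24 ± 0.40 SE (adjusted p = 0.776). Mars2, Wars2, Rars2, Hars2 and Tars2 held between 3 and 10 counts over the controls and did not pass the filter. Of the end-processing enzymes, Hsd17b10, a subunit of mitochondrial RNase P, had 0.55 ± 0.45 SE (adjusted p = 0.503), while Elac2 had 5 control and 29 knockout counts and did not pass the filter. Where it was fitted in the alternatives, edgeR called Elac2 higher without knockout 1 (log2 difference 2.17, adjusted p = 0.0261) and not with no low-count filter (1.95, adjusted p = 0.102) or without any 1 control (adjusted p between 0.0953 and 0.208).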

How the data were processed

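RNA of crude heart mitochondria was isolated with the miRNeasy kit and sequenced in pairs on a MiSeq from TruSeq libraries, per the labels' protocols. The submitters' processing notes name HISAT 0.1.6, featureCounts 1.3.5-p4, R 3.2.0, edgeR 3.11.2 and GRCm38. Strand setting, fragment size, annotation release and the handling of reads in several genes or places were not found in these sources. The deposited raw count files hold whole counts per gene. A single row holds mt-Atp8 with mt-Atp6, and another mt-Nd4l with mt-Nd4. The authors' deposited table gives log2 fold changes and false discovery rates (adjusted p-values) for 6319 genes, per the file headers; the deposited normalised values were not used. Positions and sequences are those of GENCODE M21, which also gave 37570 nuclear identifiers a symbol.

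The 3 knockouts were set against the 3 controls in a robust quasi-likelihood fit with no covariate (edgeR 4.0.16 in R 4.3.3) after filterByExpr (minimum count 10, minimum total 15), with TMM scaling and Benjamini-Hochberg adjustment over all 3363 tested rows, called at an adjusted p under 0.05, 2-sided. A second fit of those rows took the summed heavy-strand mRNA counts as library size. SEs are those implied by the F statistics. Values per library were compared by exact permutation over the 3 and 3 libraries (scipy 1.17.1), pooled counts by exact intervals. Alternatives were DESeq2 1.42.0, other scalings, filters and references, a replicate block and leaving out each library. The procedure was tested on simulated data. A gene of the list is not reported here by name. The tRNA rows, lists and named genes (all 8 rows, their neighbours, list members past the test, and the 5 most like rows by log2 CPM with a prior count of 2) were chosen with earlier results of these data known; neighbouring genes that gave context were named after their values were seen.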

Additional observations from a re-analysis of the deposited data

How the results depend on the processing

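The falls of mt-Ti, mt-Tm and mt-Tw against nuclear transcripts were called in all 12 alternatives run (DESeq2, RLE scaling, no scaling, 2 other filters, the replicate block and leaving out each library); with no scaling beyond the library size, which shifts the median of all rows to 2.06 on the log2 scale, they were -4.28, -2.82 and -3.22. Relative to heavy-strand mRNAs, 1 tRNA row was called. Against the whole mtDNA total, which is mostly rRNA, 3 were called lower, but so was every heavy-strand mRNA row, among 14 lower of all 3363 rows. The rRNA rows fell less than the mRNA rows. With no low-count filter 2 were called, mt-Ti lower and mt-Tt higher, where 11022 of all 14236 rows were called higher and 1 lower. DESeq2 and the mtDNA rows fitted alone each called 0 of mt-Ti, mt-Tm and mt-Tw, with 0 of the 3 at an unadjusted p under 0.05 in either. Why the calls differed between these fits was not tested. The adjusted p of mt-Ti lay between 2.33e-08 and 0.142 over these alternatives. The difference of the summed rows moved from -0.06 to -1.34 with rRNA counts in place of mRNA counts and lay between -0.38 and 0.23 when 1 library was left out. In the list of nuclear tRNA genes, where 1 was called higher, 6 were with no scaling, 0 in DESeq2, 0 with no low-count filter, 0 with the filter from nuclear counts (1 gene tested), and between 0 and 2 when 1 library was left out.

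Replicate numbers are shared between groups, but the labels tie them to nothing else, and same-numbered libraries did not deviate together (correlations between -0.0195 and 0.0212 over tested rows). The replicate block gave 3 and 1 called tRNA rows in the 2 comparisons, as without it, and 212 higher and 217 lower rows in all, against 224 and 228. Depth limits the results for mt-Td, mt-Tk, mt-Tr, mt-Th and mt-Tt, and the knockout counts of mt-Ti and mt-Tw, which were 9 each.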
